A study of Arabidopsis thaliana with 18 samples.

Results

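The comparison described here is that of leaves of the Arabidopsis thaliana line ml2 after 7 days in darkness against leaves of the same line at day 0 of the dark treatment. Its members are 6 of the 18 libraries of the series, 3 of ml2 at day 7 and 3 of ml2 at day 0, and every gene of the deposited table was taken. Arabidopsis, or thale cress, is the standard model plant of molecular genetics. The labels name ml2 a knockdown, and both ml2 groups carry it. The remaining 12 libraries come from WT and from a second knockdown line, ml5, at the same 2 days. The sources used here do not give how ml2 was made, the age of the plants or the hour of harvest. The protocol text mentions doxycycline, but no label assigns it to a library. Nothing in the labels says that the 3 libraries of a group came from separate plants. The p-values therefore measure the spread between libraries of one group, pooled over the series, which may be technical.

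A darkened leaf can no longer fix carbon. Such leaves are known to use up sugars, to degrade chlorophyll, chloroplast protein and lipids, and to respire amino acids in place of carbohydrate, a program that overlaps with leaf senescence. Autophagy, the enclosure of cytoplasm in vesicles that are delivered to the vacuole, is one of the routes by which leaf cells take their own contents apart, and the series title names it. ML2 belongs to the Mei2-like family, which encodes proteins with RNA-recognition motifs.

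The table held estimated counts of RNA sequencing reads for 27628 genes. Of these, 19493 had enough counts to be tested and 8135 had not. Levels below are in CPM, counts scaled to a library of 1000000, after scaling by the trimmed mean of M values (TMM). Each change is a log2 fold change ± SE of ml2 day 7 over ml2 day 0 from edgeR's quasi-likelihood test, and each adjusted p is two-sided and corrected by Benjamini and Hochberg over all tested genes, with n = 3 libraries per group. "Rose" and "fell" stand for an adjusted p below 0.05. Where a gene had few reads at one day, the SE is too small, because it does not carry the full counting error of that day. Because whole leaves were sequenced, fewer cells of a type and less RNA per cell cannot be told apart.

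Library totals of the series ran from 14914598 to 20417396 counts. Over the 6 ml2 libraries, the first principal component separated the days and held 96.5% of the variance, and the second held 1.3%. One library stood apart from its group. Replicate 1 of ml2 day 0 differed from replicates 2 and 3 by 13.3 and 8.97 in chi-square over its degrees of freedom, a measure that is near 1 where only counting noise separates libraries, whereas replicates 2 and 3 differed by 3.11 and the other pairs of one group in the series by 1.77 to 5.92. The leaf label was checked against markers of mesophyll, the photosynthetic tissue of the leaf. LHCB1.3, a light-harvesting protein gene, had 33166, 38730.1 and 36807 CPM in the ml2 day 0 libraries, and the Rubisco activase gene RCA had 9147, 8831 and 8654 CPM. In contrast, 6 of 8 root markers, 5 of 8 flower and pollen markers and 6 of 7 shoot meristem markers were too low to be tested. The 2 tested root markers together summed to 15.4 to 18.1 CPM at day 7 and 12.2 to 17.4 CPM at day 0. The 3 tested flower and pollen markers together summed to 2.49 to 3.44 CPM at day 7 and 2.91 to 3.82 CPM at day 0.

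The libraries of one group also differed by transcript length. For this description, 13889 genes with a mean of at least 5 CPM over the ml2 libraries and a length in the RefSeq annotation were split by length into 5 groups of nearly equal size. In the group of shortest transcripts, the median log2 ratio of replicate 1 of ml2 day 0 to the mean of replicates 2 and 3 was -0.17, and in the group of longest transcripts it was 0.23. Replicate 2 of ml2 day 7 ran the same way, with -0.12 in the shortest and 0.10 in the longest group. The median log2 fold change of day 7 over day 0 was -0.19 in the shortest and 0.26 in the longest group in ml2, and -0.0034 and 0.17 in WT. Without replicate 1 of ml2 day 0, the ml2 medians were -0.25 and 0.34. The part of length in single changes was not tested.

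**Figure D1:**
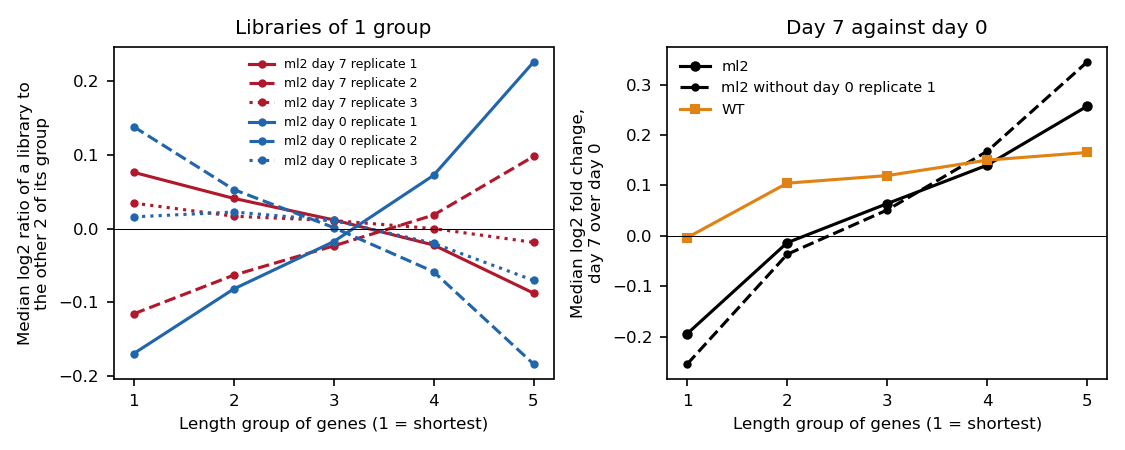
The left panel plots, for 5 groups of genes by transcript length, the median log2 ratio of each ml2 library to the mean of the other 2 libraries of its group, and the right panel the median log2 fold change of day 7 over day 0 in ml2, in ml2 without day 0 replicate 1, and in WT. Replicate 1 of ml2 day 0 climbs by the most across the groups, and the ml2 medians span -0.19 to 0.26.

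Most measured genes of ml2 leaves differed between day 7 and day 0. Of the 19493 tested genes, 15548 changed, which is 79.8%. Of these, 7714 rose (39.6% of all tested) and 7834 fell (40.2%). A change of at least 2-fold was seen upward in 3459 genes (17.7%) and downward in 4592 genes (23.6%). At least 64-fold higher were 326 genes, and at least 64-fold lower were 249. In 15394 genes (79.0%) the 3 libraries of one day all lay above the 3 of the other day. The median over all tested genes was 0.00071, a value held near 0 by TMM scaling, which centres the bulk of genes. These shares are the background for each count below. The genes named by list were those with the largest changes and with libraries that did not overlap between the days, so in each of them all day 7 libraries lay on one side of all day 0 libraries, and they do not stand for the whole list. The split depended on scaling: with library sizes alone 9406 genes rose and 6507 fell, and the median of all genes then stood at 0.23.

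**Figure D2:**
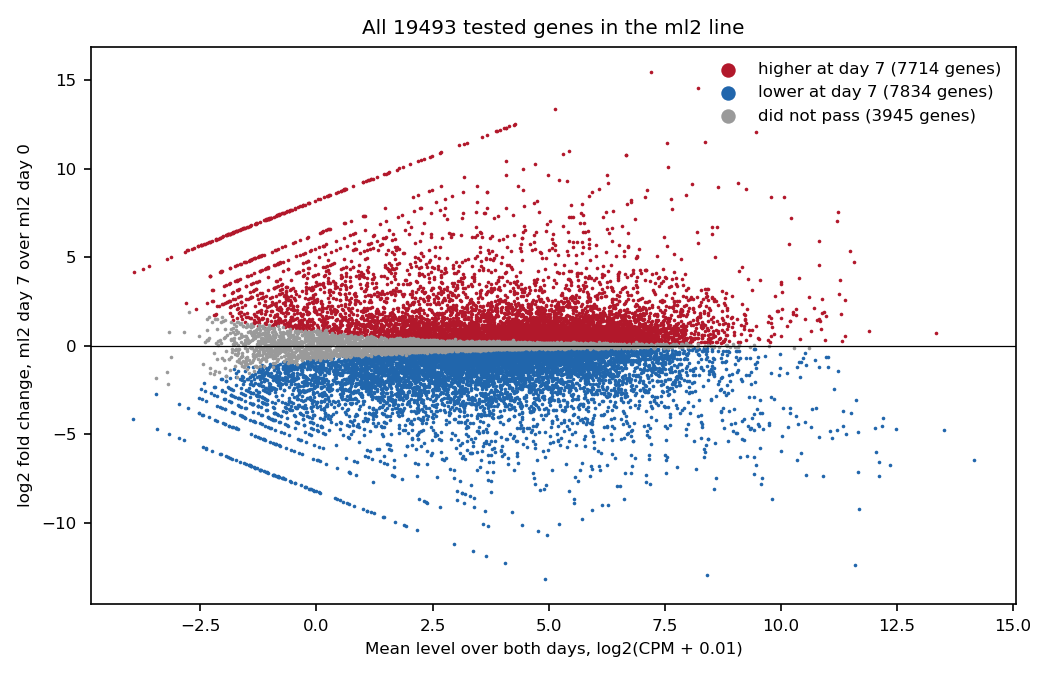
Each point is a tested gene of the ml2 line, placed by its mean level over both days (log2 of CPM + 0.01) and by its log2 fold change of day 7 over day 0, in red where it rose, blue where it fell and grey where it did not pass. The straight diagonal bands at the edges are genes with 0 or nearly 0 counts at one day, whose fitted fold change depends on the prior count, and 7714 red points face 7834 blue ones.

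A few genes held a large part of all reads, and their identity differed between the days. The 10 genes with most counts held 6.16% ± 0.084 of the counts of an ml2 day 7 library and 12.3% ± 0.54 of those of an ml2 day 0 library (mean ± SD, n = 3). At day 7 that group comprised CAT3, a catalase gene; GASA1, a gibberellin-regulated peptide gene; SIP2, which encodes a raffinose-splitting alpha-galactosidase; the polyubiquitin gene UBQ10; ERD5 of proline breakdown; the asparagine synthetase gene DIN6; DIN10; the nitrilase gene NIT1; SEN1; and the ERF transcription factor gene EBP. CAT3 alone held 1.43% ± 0.0081 at day 7 and 0.732% ± 0.038 at day 0. GASA1 held 0.645% ± 0.045 at day 7 and 0.0210% ± 0.0015 at day 0. At day 0 all 10 were genes of photosynthesis: LHCB1.3, LHB1B2, LHCB3, LHCB5, LHCA1, LHCA3, LHCA4, PSBR, RBCS1A and RCA. LHCB1.3 held 0.0457% ± 0.0013 at day 7 and 3.38% ± 0.26 at day 0, although the reads of LHCB1 and RBCS genes fall on near-identical copies and their division among members is uncertain.

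The largest rises were of genes that were silent or nearly so at day 0. Of the 12 largest, 7 had 0 counts in all ml2 day 0 libraries, so their folds are lower bounds against a floor of 3 counts per library, which covers counting error only. PCK2, a phosphoenolpyruvate carboxykinase gene of gluconeogenesis, had 296, 288 and 299.7 CPM at day 7 against 0 at day 0. It was at least 1792-fold higher. PGAZAT, a polygalacturonase gene of pectin breakdown, had 67.5, 67.5 and 77.6 CPM at day 7 and was at least 431-fold higher. UMAMIT25, of a family of amino acid exporters, was at least 235-fold higher. The purple acid phosphatase gene PAP20 and SAG12, a cysteine protease gene that marks senescence, were at least 216-fold and 189-fold higher. DDF1, a transcription factor gene close to the CBF genes, and GulLO2, an L-gulonolactone oxidase gene, were at least 179.8-fold and 178-fold higher. In every one of these genes the day 7 libraries lay close together, as in the 31.8, 31.1 and 30.6 CPM of SAG12.

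The other largest rises had a few counts at day 0. Where a group held 1 to 3 reads in all, the ratio of the days is given with an exact counting interval, which covers counting error only, in place of a fitted fold change. MAX4 and MAX3 encode carotenoid cleavage dioxygenases, which make strigolactones, hormones that restrain branching and speed leaf senescence. MAX4 had 595, 586 and 611 CPM at day 7 against 0.0560, 0 and 0 CPM at day 0 (a ratio of 32708, 95% counting interval 5870.1 to 1291937). MAX3 had 83.8, 84.5 and 92.1 CPM at day 7 against 0.112, 0 and 0 CPM at day 0 (a ratio of 2378, 95% counting interval 658 to 19644). Both genes were read in all day 7 libraries and in 1 of the 3 day 0 libraries. GAT1_2.1, a glutamine amidotransferase gene, had 648, 672 and 667 CPM at day 7 against 0.280, 0.0546 and 0.323 CPM at day 0 (11.52 ± 0.11). DIN2, a dark-inducible beta-glucosidase gene, had 1429, 1404 and 1432 CPM at day 7 against 0.504, 0.382 and 0.108 CPM at day 0 (12.05 ± 0.10). TH8, an h-type thioredoxin gene, changed by 11.44 ± 0.12. GAT1_2.1, DIN2 and TH8 had few reads at day 0, so their SE is too small. The 12 largest rises and 12 largest falls were taken only from called genes whose libraries did not overlap between the days. The gap between days in these genes therefore follows from that choice.

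The largest falls were of photosynthesis, cytokinin response and cell wall genes. NdhM, which encodes part of the NDH complex of chloroplasts, had 0 counts in all ml2 day 7 libraries against 52.3, 66.7 and 62.9 CPM at day 0, at least 419-fold lower. ARR7, a type-A response regulator that cytokinin induces, had 0 counts at day 7 against 27.6, 35.8 and 36.3 CPM at day 0, at least 229-fold lower. XTH31, a xyloglucan-modifying enzyme gene, had 0 counts at day 7 and was at least 172-fold lower. FBA5, a fructose-bisphosphate aldolase gene, had 0, 0 and 0.230 CPM at day 7 against 648, 701 and 679.9 CPM at day 0 (-12.92 ± 0.14, adjusted p = 9.06e-35). CAB3, of the LHCB1 group, had 1.20, 1.22 and 1.01 CPM at day 7 against 5566, 6715 and 6232 CPM at day 0 (-12.39 ± 0.092), with the caution on near-identical copies given above. RbcX1, a chaperone of Rubisco assembly, had 0.249, 0.0488 and 0.0461 CPM at day 7 against 94.3, 117 and 103 CPM at day 0 (-9.78 ± 0.21). FBA5 and RbcX1 had few reads at day 7, so their SE is too small. The protein kinase gene CIPK20 (-10.03 ± 0.20) and the peptide gene RGF9 (-9.27 ± 0.18) were also among the 12. The last 4 held 1 or 2 reads in all at day 7, and their ratios are of day 0 over day 7. Lhca6, which joins photosystem I to the NDH complex, fell (a ratio of 1939, 95% counting interval 536 to 16017). ARR6, of the same family as ARR7, fell (a ratio of 1612, 95% counting interval 289 to 63711). The expansin gene EXPA8 fell (a ratio of 1492, 95% counting interval 267 to 58993), as did MSRB6, a methionine sulfoxide reductase gene (a ratio of 771, 95% counting interval 213 to 6375).

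The 250 bases upstream of the annotated start are shown for 2 of the largest falls and 2 of the largest rises, from the RefSeq annotation of the TAIR10.1 genome, 5′ to 3′ on the strand of the gene. They were chosen after the matches were seen, because both falls hold the evening element, which clock proteins bind. Capitals mark matches on either strand to the evening element (AAAATATCT), the I-box core (GATAAG), the W-box core (TTGACC or TTGACT), the abscisic acid response core (ACGTGG) or the sugar response element (TATCCA). The G-box (CACGTG) was also searched.
FBA5, chr4:13390504-13390753, plus strand: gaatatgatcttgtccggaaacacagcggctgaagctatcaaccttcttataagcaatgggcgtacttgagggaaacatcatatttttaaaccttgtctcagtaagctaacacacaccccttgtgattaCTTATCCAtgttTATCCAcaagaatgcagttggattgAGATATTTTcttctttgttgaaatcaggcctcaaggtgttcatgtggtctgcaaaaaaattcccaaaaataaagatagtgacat
RbcX1, chr4:2118618-2118867, minus strand: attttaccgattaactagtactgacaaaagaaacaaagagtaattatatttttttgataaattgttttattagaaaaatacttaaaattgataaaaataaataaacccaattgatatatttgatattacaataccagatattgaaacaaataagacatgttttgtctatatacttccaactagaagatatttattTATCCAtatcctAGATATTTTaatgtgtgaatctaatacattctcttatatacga
MAX3, chr2:18558635-18558884, plus strand: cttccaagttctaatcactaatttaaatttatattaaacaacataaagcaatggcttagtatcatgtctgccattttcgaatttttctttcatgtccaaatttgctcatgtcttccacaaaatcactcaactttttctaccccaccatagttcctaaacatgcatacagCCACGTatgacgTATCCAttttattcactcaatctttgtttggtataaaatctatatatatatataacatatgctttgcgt
GAT1_2.1, chr1:5181403-5181652, minus strand: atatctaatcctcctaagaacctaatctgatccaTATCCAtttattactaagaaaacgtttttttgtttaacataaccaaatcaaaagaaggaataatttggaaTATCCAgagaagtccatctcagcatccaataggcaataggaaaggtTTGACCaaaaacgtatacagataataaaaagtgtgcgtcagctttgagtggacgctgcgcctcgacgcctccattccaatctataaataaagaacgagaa
FBA5 holds the evening element on the reverse strand, an I-box core on the reverse strand and 2 sugar response elements, the first of which overlaps the I-box. RbcX1 holds the evening element on the reverse strand and 1 sugar response element. MAX3 holds 1 abscisic acid response core on the reverse strand and 1 sugar response element, and GAT1_2.1 holds 1 W-box core and 2 sugar response elements.

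Over all genes, the W-box core had the widest gap in percentage points between rising and falling genes. As a ratio of shares, the evening element lay furthest apart. Windows were 250 bases upstream and 50 bases downstream of the start of 19335 tested nuclear genes. The evening element was found in 3.02% of 3446 genes at least 2-fold higher (exact 95% interval 2.47% to 3.65%). It was found in 4.08% of 4509 genes at least 2-fold lower (3.52% to 4.70%) and in 3.09% of all. The W-box core, the site of WRKY factors, was found in 36.2% of the higher genes (exact 95% interval 34.6% to 37.8%), 29.7% of the lower genes (28.3% to 31.0%) and 32.9% of all. The intervals cover counting error only, and no test was made. The I-box core was in 15.9%, 17.7% and 15.1% of these groups, the sugar response element in 17.5%, 19.3% and 16.7%, the abscisic acid response core in 11.6%, 11.5% and 10.8%, and the G-box in 9.14%, 9.03% and 8.85%. A match is a run of letters and does not show that a factor binds there.

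Nuclear genes of the photosynthetic apparatus fell without exception. Of 36 tested light-harvesting and photosystem genes, all 36 fell, with log2 fold changes from -9.20 to -2.43 and a median of -4.74, beside 40.2% of all tested genes and a median of 0.00071. Together they took 0.725% ± 0.028 of the counts of ml2 day 7 libraries and 17.2% ± 0.69 of those of ml2 day 0 libraries. LHCB3, an antenna protein of photosystem II, had 53.7, 52.8 and 53.8 CPM at day 7 against 8195, 9452 and 8927 CPM at day 0 (-7.37 ± 0.054, adjusted p = 5.83e-39). LHCB2.2 had 22.3, 23.4 and 23.5 CPM at day 7 against 3825, 3839 and 3719 CPM at day 0 (-7.36 ± 0.047). PSBS, which switches the antenna to heat release, had 4.29, 3.71 and 4.89 CPM at day 7 against 753, 794 and 776 CPM at day 0 (-7.49 ± 0.077). LHCB1.1 fell by the most of the list (-9.20 ± 0.071).

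Carbon fixation genes fell too. All 24 tested genes of the Calvin cycle and photorespiration fell, with a median of -5.31 and a range from -8.62 to -0.79. Their share of counts was 0.329% ± 0.0053 at day 7 and 4.56% ± 0.057 at day 0. CA1, a carbonic anhydrase gene of the chloroplast, had 4.09, 5.46 and 4.15 CPM at day 7 against 1933, 1721 and 1746 CPM at day 0 (-8.62 ± 0.081). GAPB, a glyceraldehyde-3-phosphate dehydrogenase subunit, had 6.69, 7.22 and 6.41 CPM at day 7 against 1456, 1548 and 1567 CPM at day 0 (-7.81 ± 0.061). SHM1, the serine hydroxymethyltransferase of photorespiration, had 18.7, 16.5 and 21.2 CPM at day 7 against 2891, 3048 and 3006 CPM at day 0 (-7.31 ± 0.072). The sedoheptulose-bisphosphatase gene SBPASE fell by 6.94 on the log2 scale. Plastid ribosome and import genes fell in 21 of 22 cases (median -1.75), among them PRPS20 (-3.12 ± 0.064), PRPL35 (-2.86 ± 0.071), PRPL4 (-2.84 ± 0.057) and the chaperonin gene CPN60B (-2.90 ± 0.067). The exception was TIC110 of the inner envelope translocon (0.46 ± 0.074), with 91.7, 99.3 and 97.9 CPM at day 7 against 84.6, 61.6 and 64.5 CPM at day 0, where replicate 1 of day 0 was the highest of its group.

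Chlorophyll synthesis genes fell while most chlorophyll breakdown genes rose. All 22 tested synthesis genes fell (median -3.17). PCB2, the divinyl reductase, had 0.399, 0.585 and 0.415 CPM at day 7 against 29.6, 33.0 and 34.7 CPM at day 0 (-6.10 ± 0.17). The light-dependent protochlorophyllide oxidoreductase gene PORB had 15.9, 18.3 and 17.6 CPM at day 7 against 706, 667 and 654 CPM at day 0 (-5.29 ± 0.054), and PORC (-5.09 ± 0.089) and the synthesis regulator GUN4 (-4.96 ± 0.10) fell by a similar amount. In breakdown, 14 genes were tested, of which 9 rose and 4 fell (median 1.67). The chlorophyll b reductase gene NYC1 had 2483, 2537 and 2531 CPM at day 7 against 183, 164 and 179.8 CPM at day 0 (3.84 ± 0.043, adjusted p = 6.60e-35). SGR2 (AT4G11910), of the stay-green family, had 239.8, 216 and 234 CPM at day 7 against 6.50, 7.87 and 7.97 CPM at day 0 (4.95 ± 0.079). MES16, an esterase that acts on chlorophyll catabolites, rose by 4.07 ± 0.056. CLH1, a chlorophyllase gene whose product is not needed for chlorophyll loss in senescence, went the other way, with 13.2, 13.99 and 12.7 CPM at day 7 against 180.4, 184 and 189 CPM at day 0 (-3.80 ± 0.068).

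**Figure D3:**
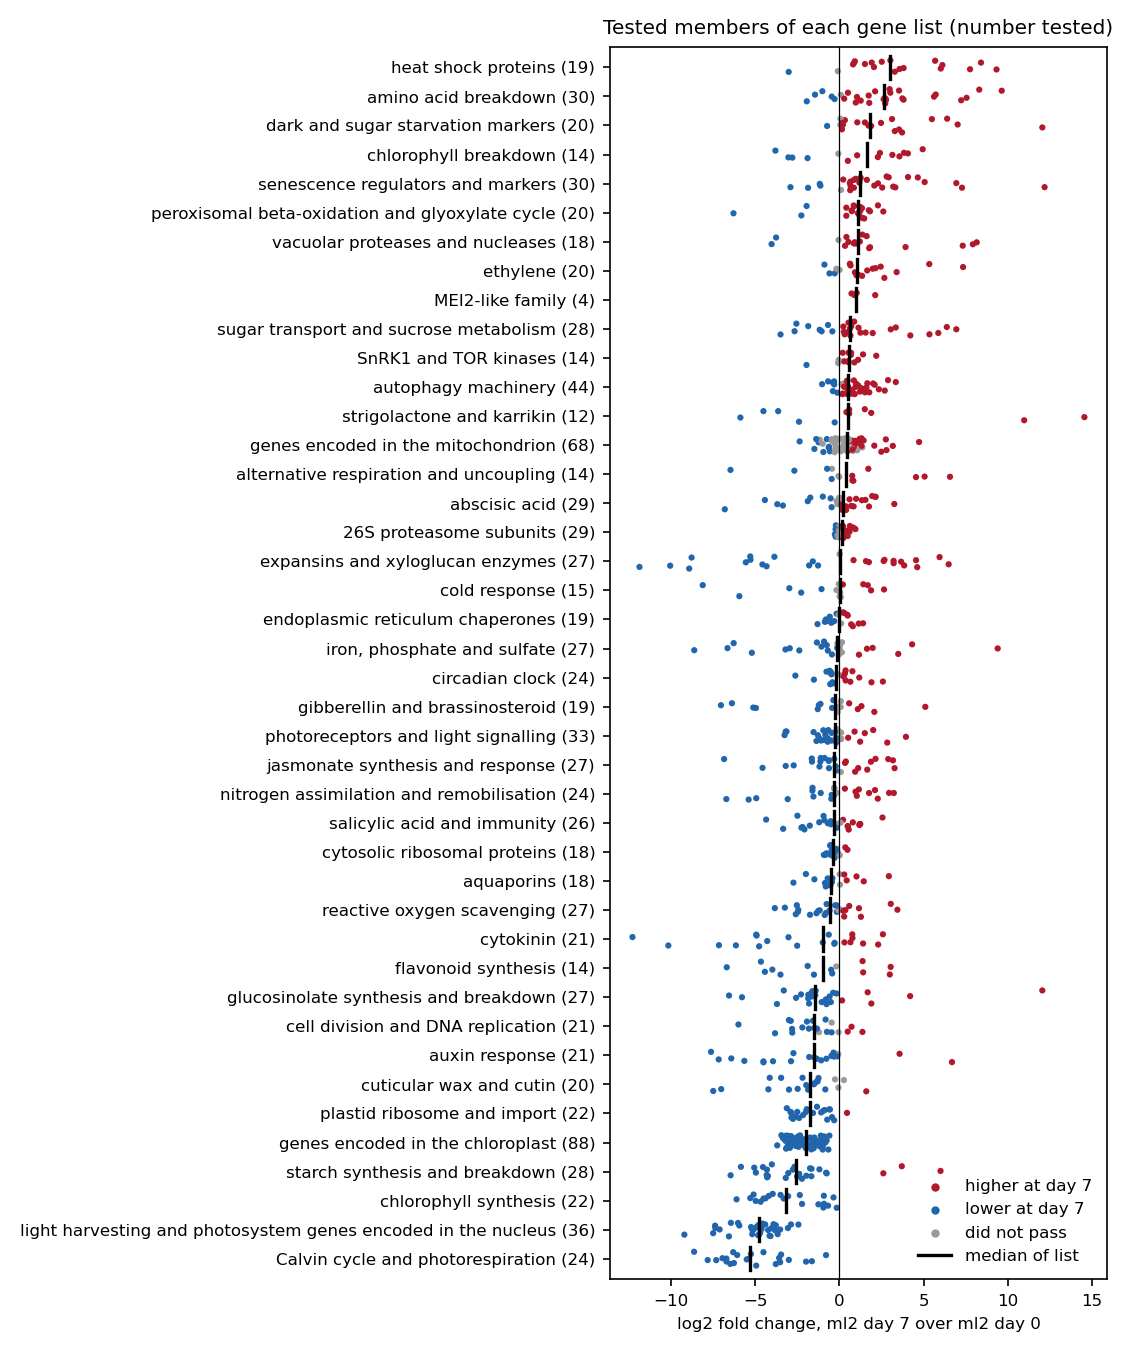
Each row is a gene list with its number of tested members, and each point is a member's log2 fold change of ml2 day 7 over ml2 day 0, in red where it rose, blue where it fell and grey where it did not pass, with the list median as a black bar. Lists of photosynthesis lie wholly on the left with medians down to -5.31, and heat shock and amino acid breakdown lists lie mostly on the right with medians of 3.03 and 2.66.

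Senescence regulators and markers rose in 25 of 30 tested cases, beside 39.6% of all tested genes, and 4 fell (median 1.25). Their share of counts was 1.04% ± 0.045 at day 7 and 0.201% ± 0.0081 at day 0. SRG1, a senescence-related oxygenase gene, had 148, 131 and 151 CPM at day 7 against 1.06, 0.601 and 1.08 CPM at day 0 (7.28 ± 0.11). SAG113, a protein phosphatase 2C of abscisic acid signalling, had 173, 166 and 172 CPM at day 7 against 5.43, 4.70 and 5.12 CPM at day 0 (5.07 ± 0.075). SAG29, a sugar transporter of the SWEET family, rose by 6.94 ± 0.29. WRKY54, a repressor of leaf senescence, fell to 6.69, 6.58 and 7.28 CPM at day 7, against 22.3, 27.3 and 24.8 CPM at day 0 (-1.86 ± 0.11).

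Genes used as markers of darkness and sugar starvation rose in 17 of 20 cases, 1 fell and 2 did not pass (median 1.81). DIN6 had 4504, 4874 and 4734 CPM at day 7 against 42.9, 30.4 and 35.3 CPM at day 0 (7.02 ± 0.080, adjusted p = 1.31e-34). DIN9, a mannose-6-phosphate isomerase gene, had 116, 109 and 117 CPM at day 7 against 2.52, 2.51 and 2.53 CPM at day 0 (5.49 ± 0.095). EXL1, of the EXORDIUM family, rose by 6.40 ± 0.11. DIN10, a raffinose synthase gene, had 4349, 4796 and 4633 CPM at day 7 against 379, 322 and 342 CPM at day 0 (3.72 ± 0.049). SEN1, also called DIN1, had 4474, 4002 and 4488 CPM at day 7 against 559, 586 and 557 CPM at day 0 (2.93 ± 0.046). TPS8, of the trehalose-phosphate synthase family, was the one to fall (-0.73 ± 0.044). Genes of the energy-sensing kinases changed less. In that list 11 of 14 rose, 1 fell and 2 did not pass (median 0.55). KIN11, a catalytic subunit of SnRK1, had 111, 107 and 109 CPM at day 7 against 42.3, 41.0 and 40.0 CPM at day 0 (1.41 ± 0.051). S6K2, a kinase downstream of TOR, rose by 2.19 ± 0.069. TOR itself had 99.7, 129 and 113 CPM at day 7 against 68.8, 42.0 and 47.5 CPM at day 0 (1.11 ± 0.11), and its long transcript is of the kind that replicate 1 of day 0 and replicate 2 of day 7 held more of.

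Amino acid breakdown had the highest median of the metabolic lists. There were 24 rises and 5 falls among 30 tested genes (median 2.66), and their share of counts was 1.78% ± 0.0044 at day 7 and 0.188% ± 0.0042 at day 0. ERD5, which encodes proline dehydrogenase, had 4772, 4852 and 4777 CPM at day 7 against 26.4, 23.8 and 26.5 CPM at day 0 (7.55 ± 0.060, adjusted p = 1.91e-38). LKR/SDH, the bifunctional first enzyme of lysine breakdown, had 2307, 2379 and 2379 CPM at day 7 against 16.3, 13.8 and 16.9 CPM at day 0 (7.23 ± 0.060). The threonine aldolase gene THA1 had 409.9, 381 and 395 CPM at day 7 against 1.18, 1.31 and 1.24 CPM at day 0 (8.31 ± 0.082). ASPGB1, an asparaginase gene, had 60.7, 65.4 and 64.6 CPM at day 7 against 0.168, 0 and 0.0539 CPM at day 0 (9.64 ± 0.19). Against this direction went the tyrosine aminotransferase gene TAT3 (-1.93 ± 0.071), which jasmonate induces, and GDH1 (-1.44 ± 0.053), a glutamate dehydrogenase gene.

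In nitrogen assimilation and remobilisation, members of one pathway moved apart: 9 of 24 rose, 13 fell and 2 did not pass (median -0.31). GS2, the chloroplast glutamine synthetase, had 36.8, 31.0 and 34.3 CPM at day 7 against 1167, 984 and 965 CPM at day 0 (-4.93 ± 0.068). GLU1, ferredoxin-dependent glutamate synthase, had 17.1, 26.5 and 21.9 CPM at day 7 against 1172, 751 and 816 CPM at day 0 (-5.38 ± 0.13), with replicate 1 the highest of day 0. A cytosolic glutamine synthetase gene, GLN1;3, had 127, 114 and 121 CPM at day 7 against 15.96, 16.00 and 14.7 CPM at day 0 (2.95 ± 0.063). The asparagine synthetase gene ASN2 had 1.85, 0.829 and 1.66 CPM at day 7 against 159, 147 and 149 CPM at day 0 (-6.71 ± 0.10), opposite to DIN6, another gene of that enzyme. The nitrate transporter gene NRT1.5 rose by 3.23 ± 0.057.

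Genes of the autophagy machinery rose in 36 of 44 tested cases, 7 fell and 1 did not pass, by small steps (median 0.53). The ATG8 proteins are joined to the membrane of the forming vesicle, and ATG7 activates them for this. ATG7 had 99.7, 103 and 101 CPM at day 7 against 12.2, 9.50 and 8.19 CPM at day 0 (3.35 ± 0.088, adjusted p = 3.95e-25). ATG8B had 166, 152 and 153 CPM at day 7 against 19.5, 23.0 and 21.1 CPM at day 0 (2.89 ± 0.067). ATG8H had 74.6, 67.2 and 73.4 CPM at day 7 against 13.4, 15.2 and 13.6 CPM at day 0 (2.35 ± 0.075). ATG7 had the largest change of the list. Against the majority, ATG18D fell by 0.66 on the log2 scale, and ATG12A, the conjugation partner of ATG5, had 18.4, 15.3 and 18.6 CPM at day 7 against 19.9, 24.2 and 23.9 CPM at day 0 (-0.38 ± 0.090), a call that ended with library sizes alone (-0.16, adjusted p = 0.106). The list took 0.409% ± 0.0024 of counts at day 7 and 0.206% ± 0.0041 at day 0.

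Proteases and nucleases of the vacuole rose in 15 of 18 cases and fell in 2 (median 1.09). BFN1, a nuclease of senescence, had 54.5, 52.4 and 54.9 CPM at day 7 against 0.504, 0.0546 and 0 CPM at day 0 (8.15 ± 0.21). The papain-like protease gene RD21A had 2993, 2860.4 and 3024 CPM at day 7 against 866, 826 and 819 CPM at day 0 (1.82 ± 0.036). The aspartic protease gene APA1 had 1822, 1906 and 1932 CPM at day 7 against 654, 498 and 506 CPM at day 0 (1.77 ± 0.064). BETA-VPE, a vacuolar processing enzyme gene known from seeds, fell by 3.75 on the log2 scale. Subunits of the 26S proteasome changed by less: 15 of 29 rose, 5 fell and 9 did not pass (median 0.16), and with library sizes alone 23 rose and none fell. The largest was RPN6 (0.96 ± 0.058), with 130.1, 129 and 129.9 CPM at day 7 against 74.3, 63.0 and 63.6 CPM at day 0, followed by the ATPases RPT3 (0.83 ± 0.047) and RPT1A (0.63 ± 0.047). PAD1 of the core particle fell (-0.27 ± 0.062), a call that ended with library sizes alone (-0.0398, adjusted p = 0.546). Cytosolic ribosomal proteins, whose transcripts are short (median 1098 bases), fell in 15 of 18 cases (median -0.39), and in 9 with library sizes alone. The group of shortest transcripts over all genes had a median of -0.19. RPS18A (-0.92 ± 0.074) and RPL5A (-0.84 ± 0.055) were lower and RPL10A (0.48 ± 0.046) was higher.

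Peroxisomes, which break down fatty acids, gave 17 rises and 3 falls among 20 tested genes of beta-oxidation and the glyoxylate cycle (median 1.14). The acyl-CoA oxidase gene ACX2 had 579, 592 and 599 CPM at day 7 against 101, 95.8 and 93.8 CPM at day 0 (2.61 ± 0.046). The multifunctional protein gene MFP2 had 361, 357 and 368 CPM at day 7 against 87.9, 66.3 and 67.8 CPM at day 0 (2.29 ± 0.065). PMDH2, a peroxisomal malate dehydrogenase that also serves photorespiration, fell to 14.8, 17.6 and 19.4 CPM at day 7, against 1328, 1375 and 1346 CPM at day 0 (-6.28 ± 0.062). KAT5, a thiolase gene, also fell (-2.25 ± 0.090). In alternative respiration, 7 of 14 rose, 4 fell and 3 did not pass. The alternative oxidase gene AOX1D had 131, 126 and 121 CPM at day 7 against 3.58, 4.37 and 3.34 CPM at day 0 (5.06 ± 0.084). NDA1, a mitochondrial NADH dehydrogenase gene that light induces, had 0.848, 0.488 and 0.461 CPM at day 7 against 58.9, 47.0 and 53.2 CPM at day 0 (-6.46 ± 0.15), and NDB1 fell by 2.67 on the log2 scale.

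Starch genes fell in 25 of 28 cases (median -2.58). In synthesis, APL1, a subunit of ADP-glucose pyrophosphorylase, had 8.93, 7.70 and 7.93 CPM at day 7 against 285, 267 and 262 CPM at day 0 (-5.05 ± 0.066). GBSS1, the granule-bound starch synthase, had 0.898, 0.390 and 0.138 CPM at day 7 against 29.8, 27.2 and 24.5 CPM at day 0 (-5.84 ± 0.22). In breakdown, the phosphorylase gene PHS2 had 4.19, 4.63 and 3.59 CPM at day 7 against 402, 333 and 352 CPM at day 0 (-6.45 ± 0.091). AMY1, a secreted alpha-amylase, rose to 119.5, 109 and 114 CPM at day 7, against 1.68, 2.35 and 1.29 CPM at day 0 (6.01 ± 0.11), and BAM9, a beta-amylase relative without known catalytic activity, rose by 3.71 ± 0.076. Sugar transport and sucrose metabolism gave 20 rises and 8 falls of 28. The sucrose synthase gene SUS3 had 203, 209.7 and 205 CPM at day 7 against 2.80, 1.53 and 3.07 CPM at day 0 (6.38 ± 0.12). GPT2, a glucose-6-phosphate translocator gene, had 198, 191 and 192 CPM at day 7 against 5.43, 4.26 and 4.58 CPM at day 0 (5.35 ± 0.086). SWEET2, a vacuolar sugar transporter gene, rose by 4.21 ± 0.073. TPT, the triose phosphate exporter of the chloroplast, had 193, 191 and 192 CPM at day 7 against 2294, 2114 and 2072 CPM at day 0 (-3.49 ± 0.041), and SWEET17 fell by 2.66 on the log2 scale.

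**Figure D4:**
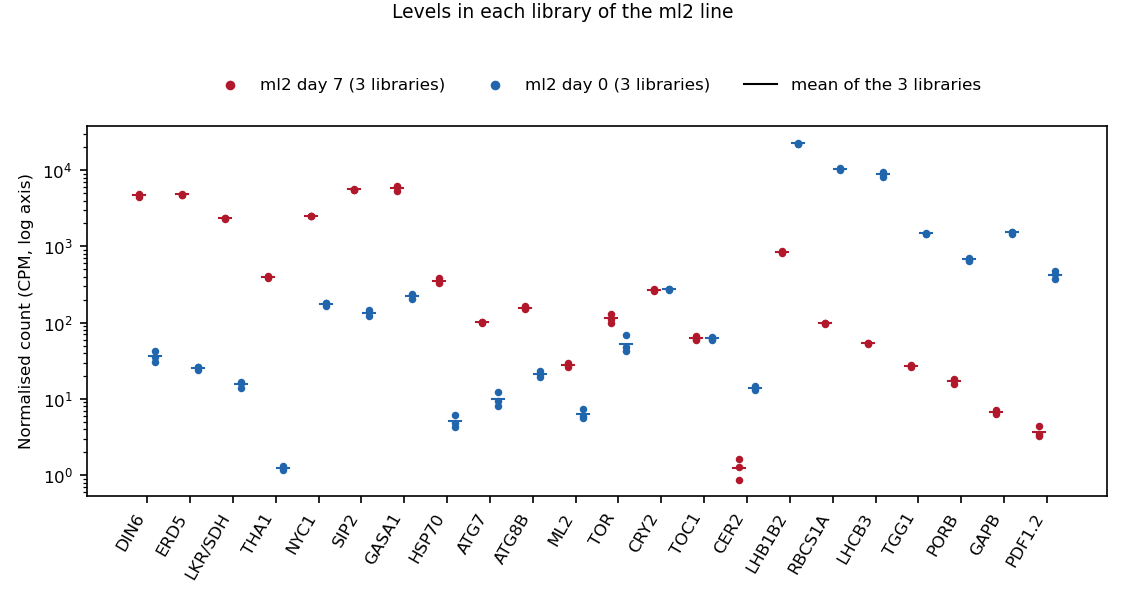
Points are the normalised counts (CPM, log axis) of named genes in the 3 ml2 day 7 libraries (red) and the 3 ml2 day 0 libraries (blue), with a bar at each mean. Breakdown, starvation, autophagy and MEI2-like genes on the left stand higher at day 7, wax, photosynthesis and defence genes on the right stand lower, and CRY2 and TOC1 between them overlap.

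Hormone lists were mixed. In the ethylene list there were 15 rises and 3 falls among 20 genes (median 1.07). ACS2, which makes the ethylene precursor, had 37.9, 35.5 and 33.8 CPM at day 7 against 1.06, 0.765 and 0.808 CPM at day 0 (5.34 ± 0.15). The receptor genes ETR2 (3.40 ± 0.093) and ERS2 (2.67 ± 0.13) and the response factor gene ERF1 (2.46 ± 0.21) rose as well. EIL1, a transcription factor of the signalling chain, fell, with 66.6, 74.0 and 69.2 CPM at day 7 against 104, 104 and 106 CPM at day 0 (-0.58 ± 0.052).

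Among abscisic acid genes 16 of 29 rose, 9 fell and 4 did not pass (median 0.19). The genes named next were picked by the size of their change and all fell, while the largest rise of the list was 3.26. COR15A, a cold and drought response gene, had 1.25, 1.12 and 0.830 CPM at day 7 against 103, 125 and 128 CPM at day 0 (-6.80 ± 0.12). RD29A, another such gene, had 20.6, 24.7 and 20.5 CPM at day 7 against 269, 199 and 202 CPM at day 0 (-3.35 ± 0.096), and KIN2 fell by 4.42 on the log2 scale. COR15A and COR15B, and KIN2 and KIN1, are near-identical pairs, so the division of their reads is uncertain. NCED4, a carotenoid cleavage dioxygenase gene, had 59.8, 61.4 and 59.5 CPM at day 7 against 886, 701 and 733 CPM at day 0 (-3.68 ± 0.064).

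Jasmonate genes gave 10 rises and 16 falls of 27, with 1 that did not pass (median -0.30). AOC2, an allene oxide cyclase of jasmonate synthesis, had 25.8, 23.7 and 27.1 CPM at day 7 against 578, 617 and 614 CPM at day 0 (-4.56 ± 0.057); its reads may be shared with the other AOC genes. PDF1.2, a defensin gene, had 4.44, 3.27 and 3.50 CPM at day 7 against 374, 475 and 434 CPM at day 0 (-6.84 ± 0.10). JAZ7, a repressor gene, rose to 25.7, 22.9 and 27.7 CPM at day 7, against 2.30, 3.33 and 2.75 CPM at day 0 (3.18 ± 0.14), and CYP94B3, which inactivates the hormone, rose by 3.28 ± 0.15. In salicylic acid and immunity, 10 of 26 rose, 14 fell and 2 did not pass (median -0.33). The pathogenesis-related gene PR2 had 41.2, 39.1 and 41.4 CPM at day 7 against 235, 221 and 227 CPM at day 0 (-2.49 ± 0.053). PR5 had 5.69, 4.34 and 6.59 CPM at day 7 against 121, 111 and 108 CPM at day 0 (-4.34 ± 0.095), and the regulator gene PAD4 fell by 2.25 on the log2 scale. FMO1, which makes the immune signal N-hydroxypipecolic acid, rose to 25.1, 30.6 and 30.4 CPM at day 7, against 4.98, 4.37 and 5.23 CPM at day 0 (2.56 ± 0.10).

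Among growth hormones, cytokinin and auxin lists had more falls than rises. Cytokinin genes fell in 14 of 21 cases and rose in 7 (median -0.99). Besides ARR7 and ARR6, the response regulator ARR9 had 0.399, 0.439 and 0.277 CPM at day 7 against 23.2, 28.7 and 27.6 CPM at day 0 (-6.14 ± 0.19). The cytokinin oxidase genes CKX4 and CKX5 moved apart, CKX4 with a change of -4.93 ± 0.18 and CKX5 with 2.59 ± 0.10. Auxin response genes fell in 18 of 21 cases (median -1.50), among them IAA29 (-7.62 ± 0.29) and IAA17 (-6.41 ± 0.27). GH3.5, which joins auxin to amino acids, rose to 760.4, 787 and 810.5 CPM at day 7, against 9.02, 6.72 and 7.17 CPM at day 0 (6.69 ± 0.076), and GH3.3 rose by 3.58 ± 0.15. Of 19 gibberellin and brassinosteroid genes, 10 fell, 5 rose and 4 did not pass (median -0.23), and with library sizes alone 8 fell and 8 rose (median -0.0018). GA3OX1, which makes active gibberellin, fell by 4.95 on the log2 scale, and GA2OX2, which inactivates it, had 29.0, 28.2 and 28.3 CPM at day 7 against 1.12, 0.382 and 0.970 CPM at day 0 (5.10 ± 0.17). On that scale GASA6 fell by 7.03 and GASA4 fell by 5.11, and the growth repressor gene RGL1 rose by 2.08 ± 0.082. In the strigolactone and karrikin list, 7 of 12 rose and 5 fell. Beside the rises of MAX4 and MAX3, SMXL8, whose product strigolactone signalling removes, had 2.05, 2.29 and 1.89 CPM at day 7 against 28.7, 23.2 and 25.3 CPM at day 0 (-3.63 ± 0.13).

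Light signalling genes fell in 19 of 33 cases, 7 rose and 7 did not pass (median -0.25). Among those that rose, HFR1, a partner of the PIF factors, had 174, 166 and 171 CPM at day 7 against 10.2, 12.3 and 10.5 CPM at day 0 (3.95 ± 0.072). HY5, a factor of growth in light, had 32.6, 25.5 and 30.1 CPM at day 7 against 4.37, 4.31 and 3.61 CPM at day 0 (2.84 ± 0.12). PIF1 (-3.19 ± 0.11) and PIF7 (-3.14 ± 0.12) fell. Clock genes gave 9 rises, 12 falls and 3 that did not pass of 24, with a median of -0.19 that was 0.036 with library sizes alone. CDF2 (1.91 ± 0.069) and BOA (2.58 ± 0.24) rose, and CHE (-2.61 ± 0.067) and CCR2, an RNA-binding clock output (-1.51 ± 0.050), fell. The hour at which each group was harvested is not known, and its part in the clock genes was not tested.

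Heat shock genes rose in 17 of 19 cases, 1 fell and 1 did not pass, with a median of 3.03, or 2.52 with members at 0 set to their bound. HSP70 (AT3G12580) had 330.1, 381 and 348 CPM at day 7 against 6.10, 4.26 and 4.90 CPM at day 0 (6.12 ± 0.080, adjusted p = 4.45e-33). HSP17.4 had 71.1, 77.3 and 75.9 CPM at day 7 against 0, 0.273 and 0.0539 CPM at day 0 (9.33 ± 0.18), and HSP17.6A, another of the cytosol, rose by 7.76 ± 0.25. HSP23.6-MITO, of mitochondria, held 1 read in all at day 0 and rose (a ratio of 464, 95% counting interval 82.9 to 18368). Small heat shock genes have close copies, so single members are uncertain. HSFC1, a heat shock factor gene, fell by 3.01 on the log2 scale. Chaperones of the endoplasmic reticulum showed no such rise, with 8 of 19 up, 9 down and a median of -0.037, which was 0.19 with library sizes alone. CRT3, a calreticulin gene, fell (-1.29 ± 0.045) and BZIP17, a stress factor gene, rose (1.41 ± 0.084). In the cold list, 5 of 15 rose, 5 fell and 5 did not pass. COR15B had 0.200, 0.195 and 0.230 CPM at day 7 against 55.3, 62.9 and 60.1 CPM at day 0 (-8.11 ± 0.15), CBF3 fell by 2.97 on the log2 scale and ZAT12, a zinc finger factor gene, rose by 2.65 ± 0.093.

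Reactive oxygen scavenging fell in 17 of 27 cases and rose in 8 (median -0.57), with the thylakoid ascorbate peroxidase TAPX (-2.59 ± 0.056) and the tocopherol cyclase VTE1 (-3.23 ± 0.14) down. GSTU24, a glutathione transferase gene (3.05 ± 0.15), and GR1, a glutathione reductase gene with 247, 236 and 247 CPM at day 7 against 101, 99.1 and 101 CPM at day 0 (1.28 ± 0.048), were up.

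Cell wall genes split evenly. Among expansins and xyloglucan enzymes, 13 of 27 rose, 13 fell and 1 did not pass, and single members moved far. XTH23 had 109, 116 and 116 CPM at day 7 against 1.68, 1.31 and 0.808 CPM at day 0 (6.49 ± 0.11). EXPA5 had 0, 0 and 0.0461 CPM at day 7 against 8.23, 11.7 and 9.81 CPM at day 0 (a ratio of 619, 95% counting interval 111 to 24487, day 0 over day 7). Summed, the tested members stood at 4240.0 to 4484 CPM at day 7 and 699 to 735 CPM at day 0, while their median of 0.020 was -0.23 without replicate 1 of ml2 day 0 and -1.43 with a stricter filter on low counts. Cell division genes fell in 15 of 21 cases and rose in 3 (median -1.48). CDC6, which licenses DNA replication, had 0.449, 0.0488 and 0.0922 CPM at day 7 against 10.3, 13.9 and 13.8 CPM at day 0 (-5.99 ± 0.27), and CYCD3;3, a D-type cyclin gene, fell by 2.80 on the log2 scale. KRP1, an inhibitor of cyclin-dependent kinases, rose to 72.7, 66.7 and 70.0 CPM at day 7, against 26.4, 26.3 and 28.2 CPM at day 0 (1.37 ± 0.061).

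The leaf surface and specialised metabolism lists fell. Wax and cutin genes fell in 16 of 20 cases, 1 rose and 3 did not pass (median -1.72). LACS2, an acyl-CoA synthetase gene of cutin synthesis, had 0.0998, 0 and 0.138 CPM at day 7 against 15.7, 15.8 and 15.3 CPM at day 0 (-7.49 ± 0.27), and GPAT8 (-4.13 ± 0.20), CER2 (-3.46 ± 0.17) and KCS1 (-2.99 ± 0.075) fell too. Glucosinolate genes fell in 22 of 27 cases and rose in 5 (median -1.43). MYB29, a regulator of aliphatic glucosinolates, had 0.249, 0.293 and 0.277 CPM at day 7 against 25.3, 25.6 and 27.6 CPM at day 0 (-6.55 ± 0.18). The myrosinase gene TGG1, which guard cells and myrosin cells express, had 27.5, 26.8 and 26.5 CPM at day 7 against 1506, 1466 and 1468 CPM at day 0 (-5.78 ± 0.049). The specifier protein gene NSP5 went up, with 1038, 1037 and 1055 CPM at day 7 against 58.8, 56.7 and 54.6 CPM at day 0 (4.20 ± 0.049). Flavonoid genes fell in 9 of 14 cases, 4 rose and 1 did not pass. F3H, which held 3 reads in all at day 7, fell (a ratio of 117, 95% counting interval 39.6 to 569, day 0 over day 7), while C4H (1.38 ± 0.053) and PAL1 (1.41 ± 0.068) of the general phenylpropanoid pathway rose.

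Among transporters and nutrient genes, no single direction held. Aquaporin genes fell in 11 of 18 cases and rose in 5. The vacuolar aquaporin TIP2;1 had 24.7, 24.3 and 25.6 CPM at day 7 against 174, 163 and 156 CPM at day 0 (-2.73 ± 0.055). TIP1;2 had 2599.6, 2557 and 2595 CPM at day 7 against 1036, 913 and 890.5 CPM at day 0 (1.45 ± 0.043). In the iron, phosphate and sulfate list, 14 of 27 fell, 6 rose and 7 did not pass, and its median of -0.13 was 0.099 with library sizes alone. FRO6, a ferric reductase of leaf cells, had 18.01, 15.1 and 16.4 CPM at day 7 against 645, 566 and 599.8 CPM at day 0 (-5.19 ± 0.070). NAS3, a nicotianamine synthase gene, had 406, 370.1 and 397 CPM at day 7 against 34.3, 35.9 and 33.7 CPM at day 0 (3.50 ± 0.053), whereas NAS4 fell by 6.64 on the log2 scale. PAP17, an acid phosphatase gene of phosphate starvation, had 344, 322 and 337 CPM at day 7 against 14.7, 17.4 and 18.05 CPM at day 0 (4.32 ± 0.069).

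All 88 chloroplast-encoded genes fell (median -1.99), and their share of counts was 0.127% ± 0.023 at day 7 and 0.309% ± 0.049 at day 0. Among 68 tested mitochondria-encoded genes there were 26 rises (38.2%, beside 39.6% of all tested genes) and 9 falls, and 33 did not pass (median 0.43), with 0.0274% ± 0.0029 of counts at day 7 and 0.0187% ± 0.00046 at day 0. How RNA was enriched is not given in the sources used here, and the part of the library method in these shares was not tested.

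Markers of leaf cell types were examined as well. All 6 tested xylem markers fell (median -3.74). Their levels summed to 2.69 to 3.46 CPM at day 7 and 17.4 to 22.5 CPM at day 0. The protease gene XCP2 was among them (-5.86 ± 0.35). Of 6 epidermis and trichome markers, 5 fell and 1 did not pass, their sum being 117 to 119.9 CPM at day 7 and 298 to 333 CPM at day 0. ATML1, an epidermal factor gene, had 8.73, 9.26 and 9.86 CPM at day 7 against 37.0, 32.6 and 34.6 CPM at day 0 (-1.90 ± 0.086). Phloem markers fell in 5 of 7 cases, 1 rose and 1 did not pass. The sucrose loader SUC2 had 47.1, 55.9 and 50.1 CPM at day 7 against 342, 275 and 279.7 CPM at day 0 (-2.55 ± 0.070), and the phloem factor gene APL rose (0.73 ± 0.063). Of 7 guard cell markers, 4 fell, 1 rose and 2 did not pass. MYB60 fell (-0.86 ± 0.16) and the potassium channel gene KAT1 rose (0.73 ± 0.085). The wax list falls with the epidermis markers, and the part of tissue makeup in it was not tested.

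The MEI2-like family rose together, the targeted gene included. ML2 (AT2G42890) had 27.5, 29.7 and 26.4 CPM at day 7 against 5.54, 6.01 and 7.49 CPM at day 0 (2.13 ± 0.081, adjusted p = 7.35e-21). In WT it had 247, 257 and 254 CPM at day 7 against 63.0, 58.7 and 61.8 CPM at day 0, so each ml2 library lay below each WT library of its day. ML1 had 129.7, 142 and 139 CPM at day 7 against 71.2, 64.1 and 65.8 CPM at day 0 (1.03 ± 0.055). ML4 had 68.3, 77.4 and 67.2 CPM at day 7 against 40.3, 34.2 and 40.4 CPM at day 0 (0.89 ± 0.080). ML5 had 364, 372 and 376 CPM at day 7 against 232, 212 and 229.7 CPM at day 0 (0.72 ± 0.050). The 4 tested transcripts are long (median 3603 bases), and the group of longest transcripts over all genes had a median of 0.26. The part of length in these rises was not tested. The median of the list was 0.96 in ml2 and 0.94 in WT, and no member passed the test of the difference between the lines. TEL1 and TEL2 had too few counts to be tested, and ML3 was not analysed here.

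Some genes of the lists stayed near their level. Among the 3945 genes that did not pass, the 6 list members with at least 50 CPM at both days and the smallest changes were CRY2, PBF1, TOC1, YSL3, PIP2;2 and a ribosomal protein locus without a symbol. The blue light receptor gene CRY2 had 278, 263 and 267 CPM at day 7 against 276, 270.3 and 278 CPM at day 0 (-0.028 ± 0.040, adjusted p = 0.527). Its libraries of both days overlapped. The clock gene TOC1 had 59.0, 65.9 and 61.7 CPM at day 7 against 65.9, 60.5 and 59.7 CPM at day 0 (0.0044 ± 0.060, adjusted p = 0.947). The log2 fold change was -0.014 ± 0.056 for PBF1, a proteasome subunit, 0.021 ± 0.049 for the metal transporter gene YSL3 and 0.023 ± 0.056 for the aquaporin gene PIP2;2. With library sizes alone CRY2 rose by 0.20 and PBF1 by 0.21, close to the 0.23 at which the median of all genes then stood.

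The dark response of ml2 was set beside that of WT by the test of the difference itself, in which ml2 and WT are separate libraries. Of 19493 genes, 5660 (29.0%) differed: the response was more positive in ml2 for 2621 genes (13.4%) and more negative for 3039 (15.6%). In 4179 of the 5660 the absolute log2 fold change was smaller in ml2 than in WT, and in 1481 it was larger. Both lines changed in 14112 genes, 13830 of them in the same direction. This count depended on the libraries and the scaling. Without replicate 1 of ml2 day 0 it was 3667 more positive and 3169 more negative genes, and with library sizes alone 1510 and 5102.

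By list, photosynthesis genes fell by smaller folds in ml2, which does not give their level at day 7. At day 7 the mean in ml2 and WT was 93.7 and 72.1 CPM for LHCB5, 23.0 and 21.8 for LHCB2.2, and 391 and 588 for RCA. At day 0 it was 8796 and 11385, 3794 and 4963, and 8877 and 14552 CPM, lower in ml2 for each. In the photosystem list 29 of 36 members had a more positive response than in WT and none a more negative one, against 24 and 1 with library sizes alone, and the medians were -4.74 in ml2 and -5.18 in WT. Jasmonate genes differed in the other direction. There 23 of 27 had a more negative response in ml2 and none a more positive one, with medians of -0.30 in ml2 and 1.10 in WT. This does not give their level either. In ml2 and WT, JAZ7 averaged 2.79 and 0.320 CPM at day 0 and 25.4 and 20.9 CPM at day 7. AOC2 averaged 603 and 412 CPM at day 0 and 25.5 and 48.7 CPM at day 7. In the senescence list 21 of 30 had a more negative response and 2 a more positive one, with medians of 1.25 in ml2 and 2.38 in WT. Levels again differ from responses: SRG1 averaged 0.914 and 0.465 CPM at day 0 and 143 and 150 CPM at day 7 in ml2 and WT, and SAG113 is described below. Among chaperones of the endoplasmic reticulum 15 of 19 had a more negative response, with medians of -0.037 in ml2 and 0.66 in WT, and in the cold list 13 of 15 had. These counts stand beside 13.4% and 15.6% of all genes.

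Among list members whose difference passed the test, and with at least 5 CPM on average in an ml2 group, the 10 with the largest absolute difference were AOC3, SAG113, HSFA2, NAC019, FMO1, FRK1, ALD1, HAI2, EXPA16 and IAA1. AOC3 of jasmonate synthesis fell in ml2, with 11.1, 10.7 and 12.5 CPM at day 7 against 23.5, 26.5 and 23.8 CPM at day 0 (-1.11 ± 0.093), and rose in WT, with 14.7, 13.2 and 14.3 CPM at day 7 against 3.74, 2.98 and 3.00 CPM at day 0 (2.11 ± 0.13). The difference was -3.22 ± 0.16 (adjusted p = 3.04e-16), with the caution on shared reads given above. In AOC3 and the 3 genes that follow, the lines lay further apart, as a ratio, at day 0 than at day 7. SAG113 had 405, 389 and 406 CPM at day 7 against 1.18, 1.07 and 1.50 CPM at day 0 in WT (8.30 ± 0.094), so that ml2 stood below WT at day 7 and above it at day 0, and the difference was -3.24 ± 0.17. HSFA2, a heat shock factor gene, had 18.3, 16.8 and 14.6 CPM at day 7 against 1.18, 1.09 and 1.24 CPM at day 0 in ml2 (3.81 ± 0.17). In WT it had 42.3, 40.7 and 40.6 CPM at day 7 against 0.328, 0.382 and 0.196 CPM at day 0 (7.08 ± 0.20). NAC019, a stress factor gene, had 180.1, 161 and 175 CPM at day 7 against 17.98, 19.9 and 18.4 CPM at day 0 in ml2 (3.20 ± 0.079). In WT it had 304, 305 and 304 CPM at day 7 against 2.56, 5.42 and 3.46 CPM at day 0 (6.34 ± 0.10). In both of these, as in SAG113, ml2 lay above WT at day 0 and below it at day 7. The immune genes FMO1, FRK1 and ALD1 had differences of -2.88 ± 0.27, -2.89 ± 0.28 and -2.91 ± 0.45, and HAI2, a protein phosphatase gene like SAG113, of -2.91 ± 0.18. In FMO1, FRK1 and ALD1 the mean of ml2 was above that of WT on both days. At day 0 the ml2 and WT means were 4.86 and 0.411 CPM for FMO1 and 11.2 and 1.09 CPM for FRK1. At day 7 they were 28.7 and 18.2 CPM for FMO1 and 25.6 and 19.1 CPM for FRK1. For ALD1 they were 5.49 and 0.549 CPM at day 0, and its libraries overlapped between the lines at day 7. ALD1 fell in ml2 (-2.07 ± 0.24) and passed as a rise in WT by a narrow margin (0.84 ± 0.39, adjusted p = 0.0456 by the same test). In WT it had 0.992, 1.45 and 0.503 CPM at day 7 against 0.722, 0.535 and 0.391 CPM at day 0, so its libraries overlapped at a low level. EXPA16 fell further in ml2 (-5.29 ± 0.22) than in WT (-1.70 ± 0.42). IAA1 had 0.200, 0.0488 and 0.184 CPM at day 7 against 7.39, 9.07 and 6.14 CPM at day 0 in ml2, where day 7 held 9 reads in all. In WT it had 0, 0.0467 and 0 CPM at day 7, which is 1 read in all, and the ratio of day 0 over day 7 was 562 (95% counting interval 100.3 to 22271). The difference of IAA1 was 2.99 ± 1.05 (adjusted p = 0.0305). With 1 library left out it ran from 2.52 to 4.72, the highest value being that without WT day 7 replicate 2. The call ended without replicate 1 or 3 of WT day 7 and without replicate 1 or 3 of ml2 day 7. Another auxin list member, IAA29, had a larger difference that did not pass, 3.69 ± 1.56 (adjusted p = 0.0805).

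**Figure D5:**
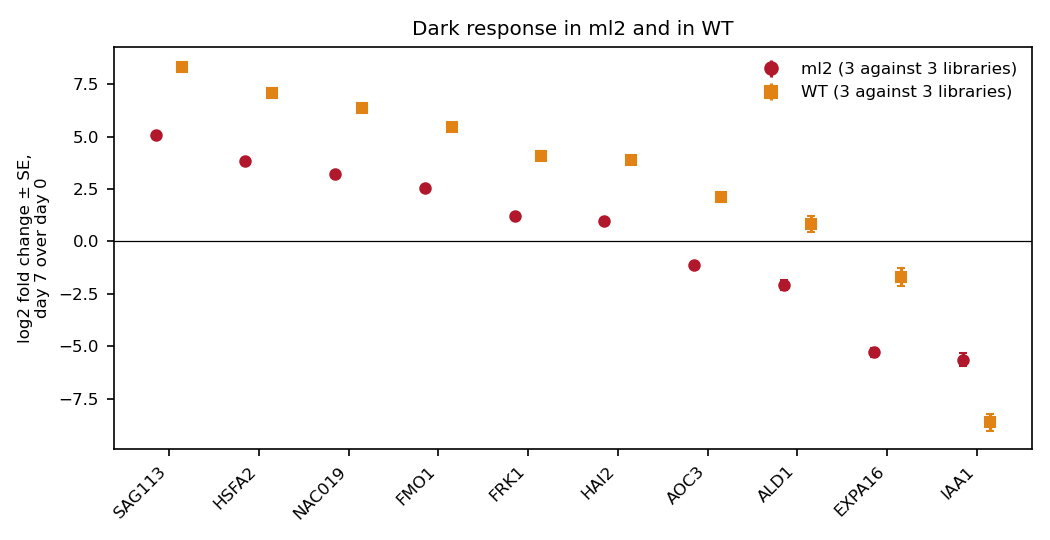
For the 10 list members with the largest difference in dark response among those that passed the test of it and reached 5 CPM in an ml2 group, points give the log2 fold change of day 7 over day 0 with its SE in ml2 (red circles) and in WT (orange squares), 3 libraries against 3 in each; where no bar shows, the SE is smaller than the symbol. In 9 of the 10 genes the ml2 point lies below the WT point, and IAA1 is the exception.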

How the data were processed

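Libraries were built from leaf RNA with the TruSeq chemistry that the labels' protocols name. The submitters' processing notes name TopHat2 2.0.12, Bowtie2 2.0.6 and the builds TAIR10 and IRGSP-1.0 without their roles. The counting tool and its strand setting were not given in the sources used here, so reads of overlapping and antisense genes, and of near-identical copies, may be shared. The authors deposited one table of estimated counts per gene, in which 97.12% of values were whole numbers. Column names mark each line by a number and each day by CK or D. The labels do not spell these out, and CK was read as day 0 and D as day 7.

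Estimated counts were rounded and analysed with R 4.3.3 and edgeR 4.0.16: filterByExpr (minimum count 10), TMM scaling, a model of 6 group means with no replicate block on all 18 libraries, and the quasi-likelihood test. The 6 groups share 1 estimate of the spread, so the wider spread of ml2 day 0 is averaged with that of the other groups. Two-sided p-values were adjusted by Benjamini and Hochberg over all tested genes, with a threshold of 0.05. The SE of a log2 fold change is its size over the square root of F. It does not carry the full counting error of a day with few reads. For DIN2 it was 0.10 in ml2 and 0.13 in WT but 0.61 for the difference between the lines. The code was tested on simulated data. Library totals are given with the results, and floors of 3 counts cover counting error only. Transcript lengths, positions and promoters came from the RefSeq annotation of TAIR10.1, in which 27420 genes matched.

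The members and the 47 lists with 1000 loci were chosen with earlier results of these data known, and 3 loci were not analysed here. Lists were described by counts and medians without a set test. Named genes were, per list, up to 4 called genes with the largest change, non-overlapping libraries and a mean of at least 5 CPM at one day, and up to 2 called against the majority; over all genes, the 12 largest rises and falls with a symbol and at least 20 CPM, and the 10 with most counts per day; up to 6 uncalled list members with at least 50 CPM at both days and the smallest change; 10 list members with the largest difference from WT that passed the test of it; and the MEI2-like genes. Not every gene the rule gave is named. Alternatives were a replicate block, RLE factors, library sizes alone, no filter, a stricter filter, DESeq2 1.42.0, limma 3.58.1 (voom), a fit of only the compared libraries, no organelle genes and each library left out in turn. Counts per list and length groups without single libraries were added after the data were seen. The ml5 libraries entered only the spread and scaling.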

Additional observations from a re-analysis of the deposited data

Results flagged for a closer look

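The dark response differed between ml2 and WT, by the test of the difference itself in edgeR, in 2621 genes that were more positive and 3039 that were more negative in ml2. Among members of the lists that passed this test and reached 5 CPM in an ml2 group, the 10 largest differences (log2, ml2 minus WT, with SE, over 3 libraries per group) were these. In 9 the response of ml2 was the lower one: -3.59 ± 0.61 for EXPA16, -3.27 ± 0.41 for HSFA2, -3.24 ± 0.17 for SAG113, -3.22 ± 0.16 for AOC3, -3.15 ± 0.14 for NAC019, -2.91 ± 0.45 for ALD1, -2.91 ± 0.18 for HAI2, -2.89 ± 0.28 for FRK1 and -2.88 ± 0.27 for FMO1. For IAA1 it was the higher one (2.99 ± 1.05), but with 1 library left out that value ran from 2.52 to 4.72, and the call ended in 4 of those fits. EXPA16 stood near the floor in WT, with means of 0.73 CPM at day 0 and 0.22 CPM at day 7. In FMO1, FRK1 and ALD1 the mean of ml2 was above that of WT on both days, so a lower response is not a lower level.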

How the results depend on the processing

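Counts of the dark comparison kept within 1.5 times under every alternative run. The fit of the 6 ml2 libraries alone gave 7218 rises and 7391 falls, and it kept 14579 of the 15114 calls that it tested. Leaving out 1 library in turn gave 7522 to 7709 genes that rose and 7659 to 7857 that fell, and 3442 to 3614 and 4576 to 4667 of at least 2-fold. Of the 15548 calls, 15006 were still called in the same direction without replicate 1 of ml2 day 0 and 14221 with library sizes alone. That scaling gave 9406 rises and 6507 falls, moved the median of all genes by 0.23, and gave 1510 more positive and 5102 more negative differences from WT, where leaving out 1 library gave 2325 to 3667 and 2690 to 3169. Same-numbered ml2 libraries of the 2 days did not deviate together (correlations of -0.17, -0.19 and 0.0065), so the numbers were not taken as pairs. The fit with the replicate number as a block gave 7680 rises and 7788 falls, and 2489 and 2921 differences from WT; it changed the call or direction of no named gene. Of the promoter motif shares, 17 of 18 moved below their interval when the upstream bases alone were searched. A shorter window cannot hold more matches, so the direction of this move was fixed in advance. With the upstream bases alone, the W-box core was in 31.9% of genes at least 2-fold higher and 25.4% of those at least 2-fold lower. The evening element was in 2.47% and 3.39%.

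The named genes whose direction turned are those that did not pass. The log2 fold change of CRY2 was 0.0010 with RLE factors, 0.20 with library sizes alone and 0.00094 with DESeq2. That of PBF1 was 0.015 with RLE factors and with DESeq2, 0.21 with library sizes alone, and -0.051 to 0.041 with 1 library left out. Likewise, leaving out 1 library gave -0.027 to 0.081 for PIP2;2, -0.016 to 0.050 for YSL3 and -0.037 to 0.049 for TOC1, and TOC1 was -0.0096 with the stricter filter. The cause was not tested. The 8135 genes under the count filter were not tested at this depth.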
